A study of Mus musculus with 36 samples.

Results

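Fibroblasts grown with tumour clone T were compared with fibroblasts grown with tumour clone H. Each co-culture gave 4 RNA-sequencing libraries, so the comparison held 8 of the 36 libraries of the series. The members were chosen by their names in the count table, and the pair itself was selected on measured values: with both clones the stress-response genes stood at like levels, while the interferon genes did not. The values of those genes are therefore given as a description, with no test. The cells were C57BL/6 murine pancreatic fibroblasts, and in both groups they spent 48 h together with a GFP-positive tumour sub-clone before flow sorting took the tumour cells away. A further 4 libraries came from the same kind of fibroblast kept in mono-culture, named PSC in the sample titles. The remaining 24 libraries came from co-cultures with clones E, K, M, N and V and with a line named KPC1, which the labels do not explain. Every library of a group came from the same clone, and each clone is a single sub-clone, so a difference between T and H is a difference between those sub-clones only.

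The integrated stress response is a program that slows general protein synthesis and raises the transcription factor ATF4, which in turn induces enzymes, transporters and tRNA synthetases that supply amino acids. The interferon response is a defence program in which transcription factors such as STAT2 and IRF9 bind interferon-stimulated response elements and switch on antiviral genes, guanylate-binding GTPases and chemokines, and it also raises the genes that load peptides onto MHC class I. Fibroblasts around pancreatic tumours are known to take on matrix-producing, contractile and cytokine-secreting states.

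The DNA letters of these programs could be read upstream of the genes compared. RefSeq promoters (build GRCm38.p6) were at hand for 55 of the 71 interferon genes tested and for 44 of the 54 stress-response genes tested, and the 250 bases before the start of each were searched on both strands. The core of the interferon-stimulated response element, GAAANNGAA on one strand or TTCNNTTTC on the other, was present in 23 of the 55 interferon promoters (41.8%), in 2 of the 44 stress-response promoters (4.55%) and in 8.18% of all 27025 genes with a promoter. The ATF4 element, TGATGNAA or TTNCATCA, was present in 12 of the 44 stress-response promoters (27.3%), in 2 of the 55 interferon promoters (3.64%) and in 3.91% of all genes. Stretches of 6 promoters are shown because their genes carry the contrast described below, with the matched letters in capitals, overlapping matches run together, and each stretch written on the strand of its gene.
Isg15, chr4:156200836-156200936, minus strand: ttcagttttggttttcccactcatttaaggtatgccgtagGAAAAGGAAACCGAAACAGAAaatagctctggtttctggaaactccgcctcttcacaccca
Rsad2, chr12:26456523-26456611, minus strand: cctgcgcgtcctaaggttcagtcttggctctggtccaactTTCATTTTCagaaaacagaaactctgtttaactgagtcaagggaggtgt
Ifit1, chr19:34640740-34640853, plus strand: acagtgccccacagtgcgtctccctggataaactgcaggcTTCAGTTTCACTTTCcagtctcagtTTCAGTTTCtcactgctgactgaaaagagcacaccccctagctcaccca
Cxcl10, chr5:92349054-92349139, minus strand: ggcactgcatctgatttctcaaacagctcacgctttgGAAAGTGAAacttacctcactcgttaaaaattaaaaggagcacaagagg
Gars, chr6:55037931-55038000, plus strand: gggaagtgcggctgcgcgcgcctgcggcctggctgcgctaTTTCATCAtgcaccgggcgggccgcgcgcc
Atf3, chr1:191183396-191183483, minus strand: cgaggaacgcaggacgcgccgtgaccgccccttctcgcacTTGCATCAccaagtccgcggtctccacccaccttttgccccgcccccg
A match describes these letters only, since binding was not measured.

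Clone T libraries held 17364961 to 19031994 counts and clone H libraries 17441494 to 21985538 counts. Fibroblast identity genes were high in all 8 libraries, with summed levels of 16672 to 18422 CPM (counts scaled to library size, with TMM factors between libraries) with clone T and 15238 to 19314 CPM with clone H, and none of the 10 was at 0. Epithelial markers were present in both co-cultures and higher with clone T: the 16 markers summed to 311 to 870 CPM with clone T, 75.1 to 278 CPM with clone H and 2.97 to 4.51 CPM in mono-culture. Of these markers Epcam was at 0 in every clone T library, and Epcam, Cldn3, Cldn4 and Esrp1 were at 0 in every clone H library. The summed leukocyte markers reached 12 to 16.3 CPM with clone T and 5.03 to 14.2 CPM with clone H, with Tyrobp and Cd3e at 0 in both. Endothelial markers summed to 2.21 to 3.35 CPM and 1.68 to 2.94 CPM, and acinar and islet markers to 3.30 to 5.73 CPM and 1.91 to 4.01 CPM, with clones T and H respectively, and none of the 3 leukocyte, 4 endothelial and 1 acinar or islet markers tested passed the threshold.

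Across the whole transcriptome, 1094 of 14439 genes differed between the co-cultures at an adjusted p of 0.05 in edgeR's quasi-likelihood test, or 7.58% of those tested. Of these, 615 genes (4.26%) were higher and 479 (3.32%) lower with clone T. All 4 clone T libraries stood above all 4 clone H libraries for 891 genes (6.17%) and below them for 768 (5.32%). The count of genes called rested in part on single libraries. It was 394 without clone T replicate 1, 508 without clone H replicate 2, 657 without clone H replicate 3 and 672 without clone T replicate 3. The labels do not say whether the 4 libraries of a group came from separate cultures. The p-values measure the spread between libraries of the same group, taken over all 36 libraries and 9 groups, and that spread may be technical. With only the 8 libraries compared, 551 genes were called.

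Stress-response genes stood at like levels in the 2 co-cultures and, for the most part, above mono-culture. The median log2 difference between clone T and clone H was -0.19 over the 54 members tested, all of the list, against 0.00 over all genes tested, and 45 members were below 0. The libraries of the 2 clones overlapped for 52 members, where they overlapped for 12780 of all 14439 genes. Past the threshold of the genome-wide test was 1 member, Fgf21, where 7.58% of all genes were. Nothing is read from these counts, since the pair was chosen by the likeness of these genes. The number past the threshold was 0 to 3 when single libraries were left out. Against mono-culture the median member was 0.77 higher on the log2 scale with clone T and 0.96 higher with clone H, comparisons that share the same mono-culture libraries. In both co-cultures replicate 4 was the low library, being lowest of its 4 for 44 of the 54 members with clone T and for 48 with clone H. Replicate 4 also had the lowest stress-response score, the mean log2 CPM of the list, in 8 of the 8 co-cultures of the series.

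Among the regulators, Atf4, the transcription factor of the program, read 796, 784, 718 and 686 CPM with clone T and 881, 974, 1010 and 750 CPM with clone H, where mono-culture averaged 595 ± 87.1 CPM (SD, n = 4). The ranges overlapped, and the log2 difference between clones was -0.28 (SE 0.14). Ddit3, which encodes the stress factor CHOP, read 134, 255, 169 and 217 CPM with clone T and 186, 283, 291 and 353 CPM with clone H. Trib3, a feedback inhibitor of ATF4, read 122, 163, 130 and 112 CPM against 128, 141, 191 and 118 CPM. Atf3, a stress-induced partner of these factors, had the largest difference of the role at -0.90 (SE 0.36), with 12.9, 13.6, 12.8 and 9.96 CPM against 18, 25.2, 35.8 and 13.3 CPM. The ranges of the 2 clones overlapped for each of these genes.

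The enzymes and transporters gave the same picture at higher levels. Asns, asparagine synthetase, read 356, 573, 428 and 316 CPM with clone T and 464, 509, 521 and 349 CPM with clone H, against a mono-culture mean of 173 ± 27.9 CPM. Shmt2, a mitochondrial serine and one-carbon enzyme, averaged 620 ± 112 CPM and 727 ± 195 CPM (SD, n = 4 each). Aldh1l2, another mitochondrial one-carbon enzyme, averaged 777 ± 182 CPM and 962 ± 233 CPM (SD, n = 4 each). The ranges of the 2 clones overlapped for all 13 enzymes, where they overlapped for 12780 of all 14439 genes. The enzyme differences ran from -0.51 for Gpt2, an alanine transaminase, to 0.05. The 12 aminoacyl-tRNA synthetases, which charge tRNAs with amino acids, lay between -0.28 for Gars and 0.13. Gars, for glycine, read 453, 518, 497 and 392 CPM with clone T and 584, 641, 614 and 413 CPM with clone H, while Aars and Nars, for alanine and asparagine, differed by -0.19 and -0.23. The 9 amino acid transporters lay between -0.36 for Slc6a9, a glycine transporter, and 0.24. Slc38a2, a neutral amino acid transporter, averaged 637 ± 40.2 CPM with clone T, 691 ± 135 CPM with clone H and 538 ± 20.4 CPM in mono-culture, and Slc3a2, the heavy chain of several amino acid exchangers, differed by -0.23 between the clones.

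The 5 secreted and surface targets held the widest spread. Gdf15, a stress-induced hormone, read 67.5, 111, 78.3 and 82.0 CPM with clone T and 134, 201, 174 and 80.3 CPM with clone H, a log2 difference of -0.80 (SE 0.27), while mono-culture averaged 23.5 ± 5.77 CPM. Vegfa, the vascular growth factor, averaged 228 ± 26.6 CPM and 262 ± 37.9 CPM. Vldlr, a lipoprotein receptor, averaged 213 ± 34.5 CPM and 228 ± 65.4 CPM. Only Fgf21 and Atf5 among the 54 members kept the clones apart, where 12780 of all 14439 genes overlapped. Both are named here after their values were seen. Fgf21, a metabolic hormone, read 0.168, 0.769, 0.328 and 0.443 CPM with clone T and 1.5, 2.93, 1.45 and 1.22 CPM with clone H. Atf5, a relative of ATF4, read 132, 106, 111 and 99.2 CPM with clone T and 82.3, 57.0, 63.5 and 73.9 CPM with clone H, both below the mono-culture mean of 367 CPM.

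**Figure D1:**
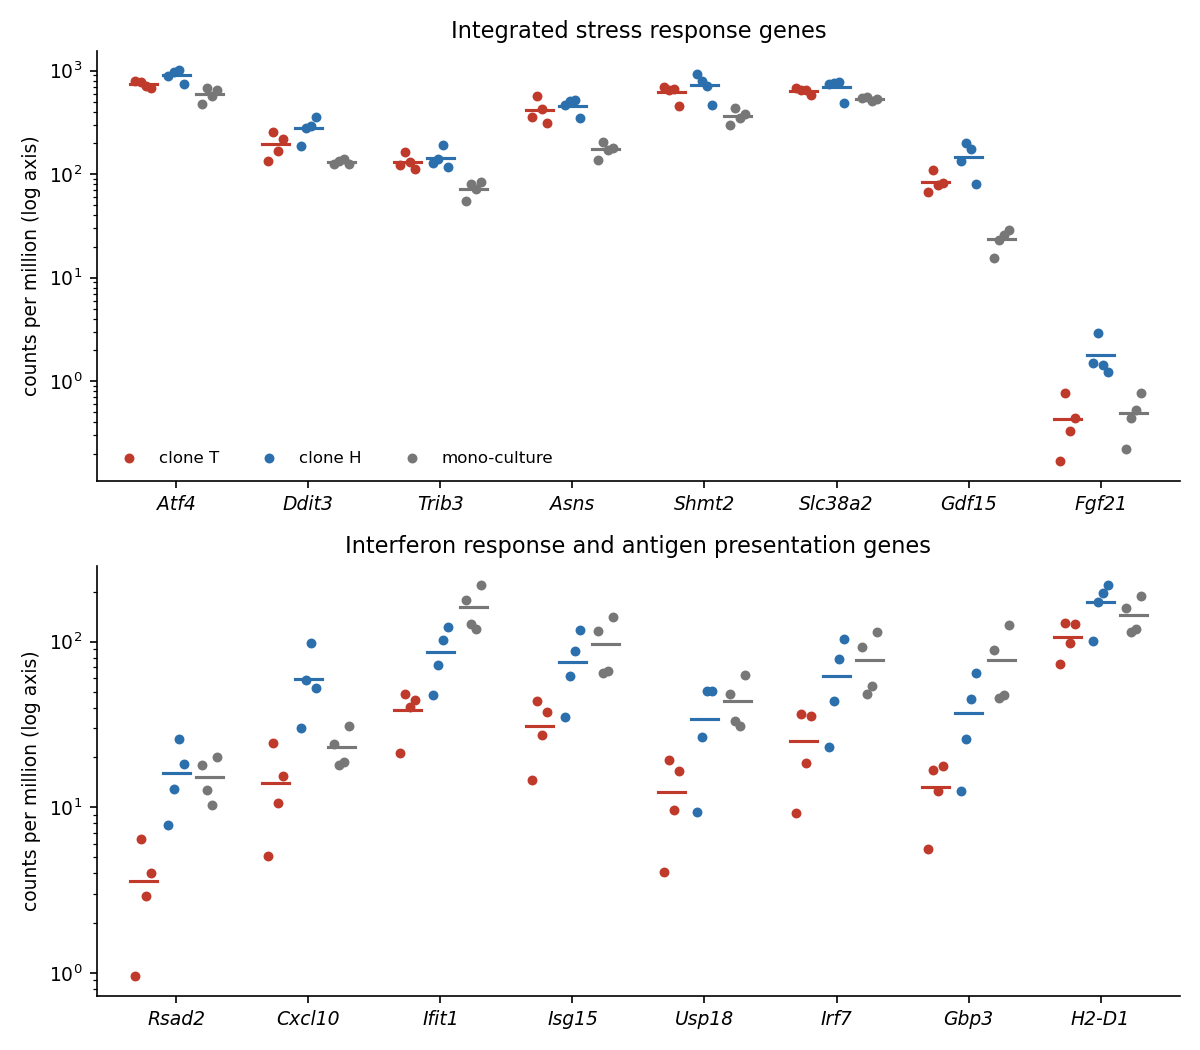
CPM of 8 stress-response genes (top) and 8 interferon or antigen presentation genes (bottom) in each library, on log axes. Points are the 4 libraries of clone T (red), clone H (blue) and mono-culture (grey), and bars are group means. The red and blue points mix for the upper genes other than Fgf21, whereas for Rsad2 and Cxcl10 all 4 red points lie below all blue points.

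Interferon genes were lower with clone T than with clone H. The list named 80 genes, of which 71 passed the filter on low counts and 9 did not (Ifnb1, Ifna2, Ifna4, Ifng, Ifnl2, Ifnl3, Ifi44l, Cxcl9 and Cxcl11), the highest reading of these in the 8 libraries being 0.354 CPM, for Cxcl9 in clone H replicate 2. The median log2 difference over the 71 was -0.99, with 63 members below 0 and 35 lower by at least 2-fold, against 253 of all 14439 genes lower by at least 2-fold. Of the 71 members, 36 were past the threshold and lower with clone T, where 3.32% of all genes were. Nothing is read from that count, since the pair was chosen by the difference of these genes. The count was 8 without clone T replicate 1, 11 without clone H replicate 4, 14 without clone H replicate 3 and 15 without clone T replicate 3. In bulk RNA, fewer responding cells and less RNA per cell cannot be told apart.

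Single libraries varied widely within each clone, so that ranges overlapped for 62 of the 71 interferon members. All clone T libraries stood below all clone H libraries for 7 members and above them for 2, Ifnar1 and Mavs, where 5.32% and 6.17% of all genes did so. Clone T replicate 1 was the lowest clone T library for 62 members, and clone H replicate 1 was the lowest clone H library for 62. Replicate 1 had the lowest mean log2 CPM of the list in 7 of the 8 co-cultures of the series. Clone T replicate 1 also had the highest clone T value for 8 of the 9 epithelial markers tested, while clone H replicate 1 had the highest clone H value for 1 of 9. Without clone T replicate 1 the median difference of the interferon list was -0.82. The part of the epithelial signal in the interferon difference was not tested.

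Interferon ligands were close to absent, so their levels could not be compared. Ifnb1, interferon beta, was at 0 in all 8 libraries except clone H replicate 2, which read 0.152 CPM, and Ifng was at 0 in all 8. The 4 receptor genes tested differed by -0.17 to 0.29 on the log2 scale, and 3 of them were higher with clone T. Ifnar1, a chain of the type I interferon receptor, read 140, 132, 141 and 132 CPM with clone T and 123, 108, 125 and 117 CPM with clone H, a log2 difference of 0.21 (SE 0.07). Ifngr2, a chain of the interferon gamma receptor, read 203, 153, 180 and 150 CPM against 166, 140, 131 and 124 CPM.

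Of the 8 sensors of viral nucleic acid and their adaptors, 6 were lower with clone T and 2 higher. Ddx58, which encodes the RNA sensor RIG-I, read 52.2, 140, 87.6 and 99.4 CPM with clone T and 104, 167, 263 and 203 CPM with clone H, a log2 difference of -0.96 (SE 0.27). Ifih1, the RNA sensor MDA5, read 28, 71.6, 47.8 and 48.7 CPM against 59.1, 99.0, 121 and 101 CPM. Zbp1, a sensor of Z-form nucleic acid, averaged 1.12 ± 0.653 CPM and 3.12 ± 2.23 CPM, both below the 6.39 ± 2.87 CPM of mono-culture. Mavs, the adaptor that RIG-I and MDA5 share, went the other way, with 42.0 to 47.4 CPM against 34.4 to 41.9 CPM.

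All 9 transcription factors and feedback genes were lower with clone T, with differences from -1.47 to -0.21. Stat2, which carries the type I signal to the nucleus, read 56.2, 112, 85.6 and 113 CPM with clone T and 100, 137, 238 and 263 CPM with clone H. Usp18, which damps the receptor, had the largest difference of the role at -1.47 (SE 0.46), with 4.04, 19.2, 9.67 and 16.4 CPM against 9.40, 26.5, 50.1 and 50.1 CPM. Irf7, an amplifier of interferon production, read 9.27, 36.5, 18.6 and 35.7 CPM against 23.2, 43.6, 79.1 and 103 CPM. Irf1, a factor of the gamma response, differed by -0.54 (SE 0.13), with 49.3 ± 5.31 CPM for clone T and 71.5 ± 17 CPM for clone H.

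The 40 antiviral effectors had a median difference of -1.04, and 37 of them were below 0. Rsad2, the antiviral enzyme viperin, had the largest difference, at -2.18 (SE 0.40): 0.955, 6.43, 2.90 and 3.99 CPM with clone T against 7.78, 12.9, 25.7 and 18.3 CPM with clone H, so that the ranges did not meet. The mono-culture mean of Rsad2 was 15.3 ± 4.57 CPM, and the fitted log2 difference from mono-culture was -2.10 with clone T and 0.08 with clone H. Ifit1, which binds foreign RNA caps, read 21.4, 48.1, 40.3 and 44.3 CPM with clone T and 47.5, 72.1, 103 and 123 CPM with clone H, where the highest clone T library passed the lowest clone H library. Isg15, a ubiquitin-like modifier, read 14.5, 43.7, 27.4 and 37.7 CPM against 34.8, 62.2, 88.4 and 117 CPM. Cmpk2, the neighbour of Rsad2 in the genome and a nucleotide kinase, read 0.955, 2.58, 0.983 and 1.94 CPM against 2.34, 4.44, 7.69 and 7.24 CPM. The effectors with the highest levels differed little: Lgals3bp, a secreted glycoprotein, averaged 228 ± 5.30 CPM and 271 ± 72.3 CPM, and Ifitm3, which blocks viral entry, averaged 224 ± 23.6 CPM and 248 ± 69.2 CPM.

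The 8 interferon-inducible GTPases, which attack vacuoles holding pathogens, were all lower with clone T, between -1.49 and -0.89. Gbp3 read 5.56, 16.8, 12.6 and 17.8 CPM with clone T and 12.5, 25.8, 44.8 and 64.5 CPM with clone H, both under the mono-culture mean of 77.4 ± 38.6 CPM. Irgm1 averaged 41.2 ± 10.5 CPM and 89.5 ± 36.3 CPM, and Irgm2 averaged 20.5 ± 8.30 CPM and 37.8 ± 18.4 CPM. Both interferon-induced chemokines tested kept the clones apart. Cxcl10, which draws T cells, read 5.05, 24.6, 10.6 and 15.4 CPM with clone T and 30.1, 58.3, 97.8 and 52.5 CPM with clone H, a difference of -2.10 (SE 0.37). Ccl5 read 7.58, 16.2, 10.4 and 13.8 CPM against 22.1, 25.6, 32.9 and 24 CPM.

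The 2 clones were also set beside mono-culture. Clone T was below mono-culture for 62 of the 71 members, with a median of -1.41, and clone H was below it for 49, with a median of -0.36. For Cxcl10 the log2 difference from mono-culture was -0.73 with clone T and 1.37 with clone H.

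**Figure D2:**
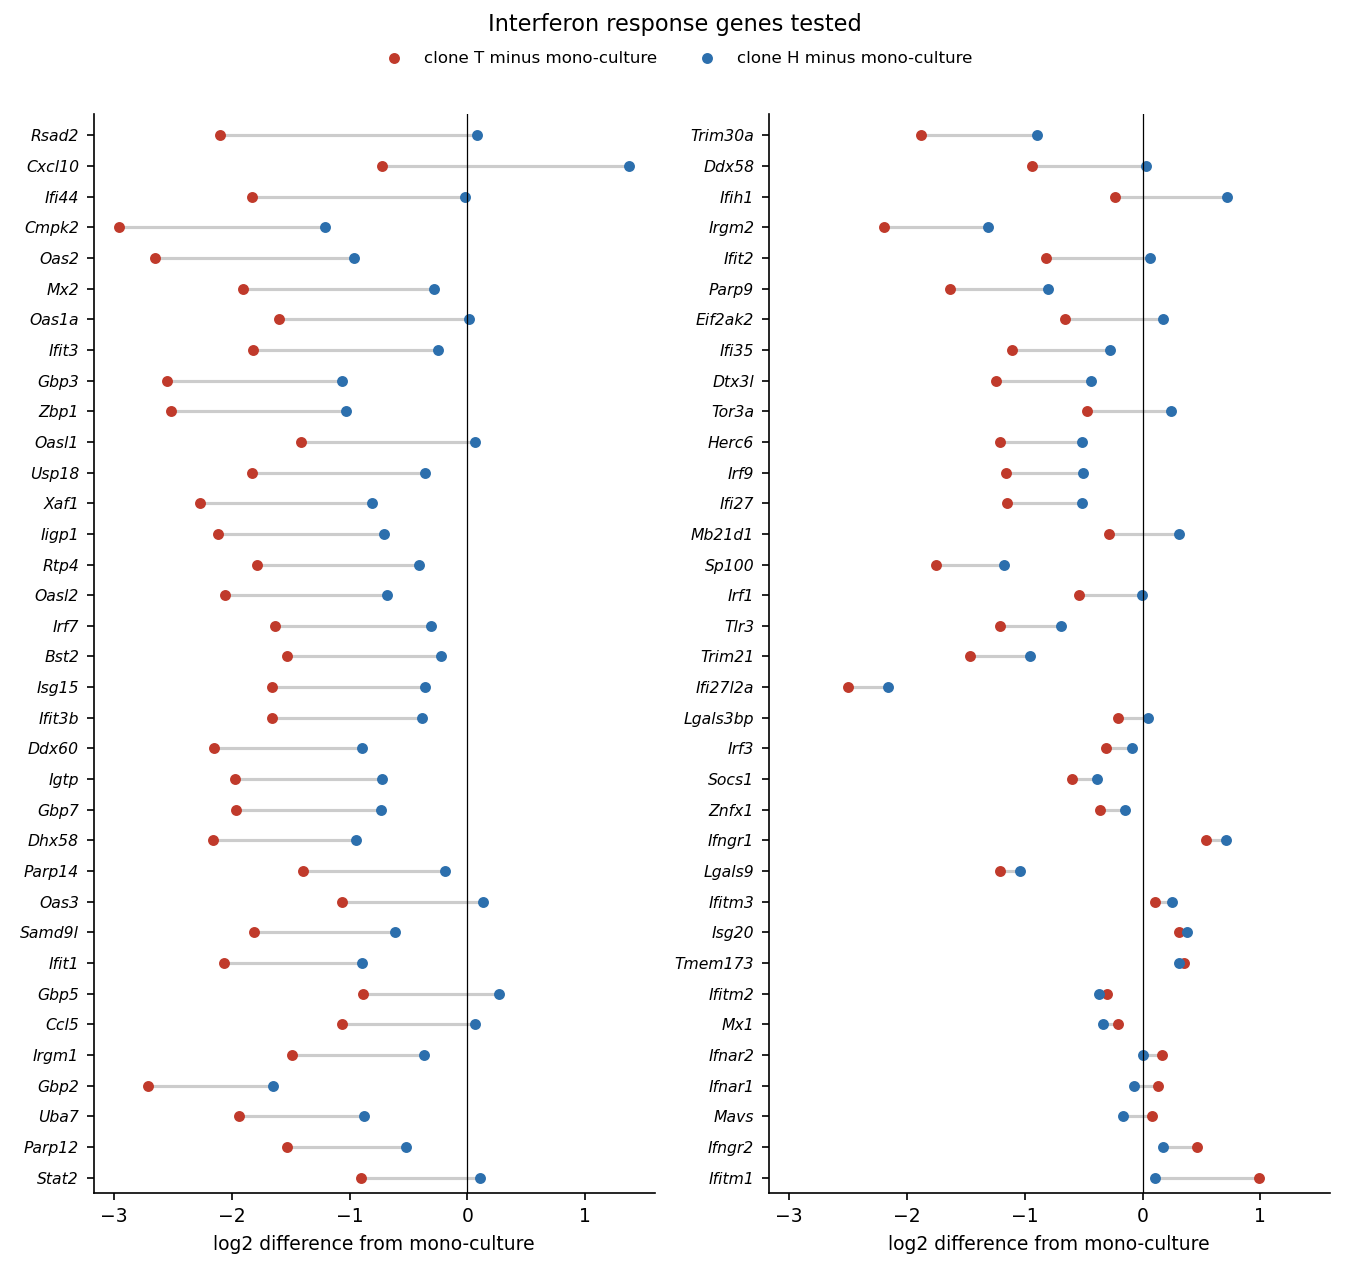
Fitted log2 difference from mono-culture of 70 of the 71 interferon genes tested, for clone T (red) and clone H (blue), joined by a grey line and ordered from the most negative difference between the clones. The red points lie to the left of the blue points for 62 genes, and both comparisons use the same 4 mono-culture libraries.

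Antigen presentation genes, which interferon also induces, were lower with clone T as well. Of 21 listed, 16 were tested and all 16 were below 0, with a median of -0.77. 9 of the 16 were past the threshold and lower, where 3.32% of all genes were. Nothing is read from that count, since interferon also induces these genes and the pair was chosen by its interferon genes. The count was 2 without clone T replicate 1, 2 without clone H replicate 4 and 4 without clone T replicate 3. It was 5 without clone H replicate 2 or without clone H replicate 3. H2-D1, a class I heavy chain, read 73.7, 130, 97.6 and 129 CPM with clone T and 101, 173, 197 and 219 CPM with clone H. H2-Q4, a nonclassical class I gene with close relatives in the genome whose reads may be shared, averaged 7.48 ± 3.09 CPM and 15.2 ± 5.10 CPM. B2m, the class I light chain, averaged 820 ± 158 CPM and 944 ± 185 CPM, a difference of -0.20 (SE 0.13).

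Among the genes that supply peptides, Tapbp, which holds class I molecules at the peptide transporter, read 161, 190, 157 and 240 CPM with clone T and 243, 296, 332 and 378 CPM with clone H, so that the ranges did not meet. Psmb8, an immunoproteasome subunit, averaged 3.78 ± 1.33 CPM and 7.75 ± 4.19 CPM, and Psme1, a proteasome activator subunit, averaged 45.0 ± 10.9 CPM and 48.2 ± 9.95 CPM. Nlrc5, the activator of class I genes, averaged 2.62 ± 0.703 CPM and 3.54 ± 1.06 CPM. Of the class II genes only Cd74, the invariant chain, passed the filter, at 8.99, 20.2, 9.01 and 16.9 CPM against 21.9, 31.4, 25.4 and 22.4 CPM. Ciita and H2-Aa were at 0 in all 8 libraries.

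The levels of both lists across the 9 groups place this pair. The stress-response score, the mean log2 CPM of the list, was 7.24 ± 0.20 with clone T and 7.45 ± 0.28 with clone H (SD, n = 4), beside 7.64 ± 0.27 with clone V, 7.44 ± 0.29 with KPC1 and 5.97 to 6.68 with the other 4 clones and mono-culture. The interferon score was 4.12 ± 0.44 with clone T, level with the 4.12 ± 0.18 of clone K, and 4.95 ± 0.62 with clone H, which had the highest mean of the 8 co-cultures. Mono-culture had the highest interferon mean of all, at 5.39 ± 0.37. Clone T libraries ran from 3.53 to 4.51 and clone H libraries from 4.16 to 5.53, and the ranges of groups next to each other in this order overlapped.

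**Figure D3:**
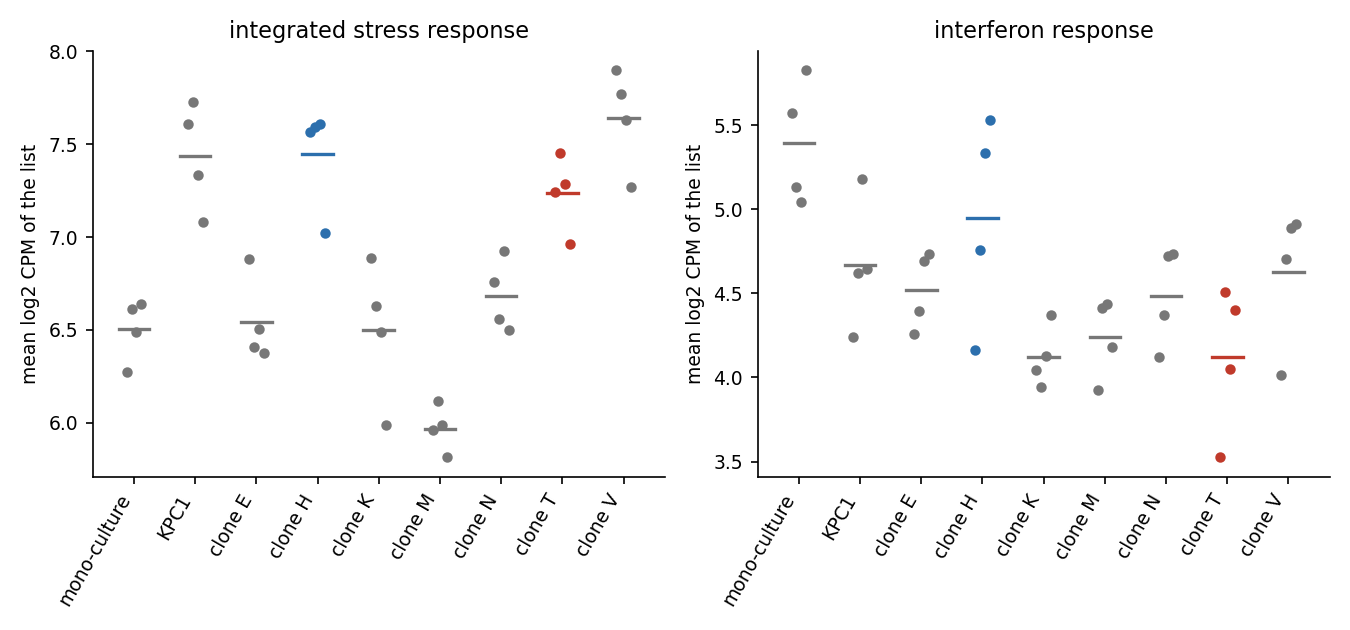
Mean log2 CPM over the stress-response list (left) and the interferon list (right) in each of the 36 libraries, by group, with clone T in red and clone H in blue. Bars are means of 4 libraries. Clones T and H sit together with KPC1 and clone V on the left, while on the right clone H averages 4.95 and clone T 4.12.

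Outside these programs the 13 other lists of fibroblast biology held 298 genes tested. Of these, 26 rose and 20 fell with clone T relative to clone H, or 46 in all against 7.58% of all genes. For genes, rose and fell mean higher or lower with clone T than with clone H, not a change from mono-culture. Without clone H replicate 2 the total was 19, without clone T replicate 1 it was 20, and without clone H replicate 3 or clone T replicate 3 it was 30. Members of these lists other than the highest and lowest were named after their values were seen, as were the keratins, Cdh1, Cldn3, Mavs and the genes at 0. The list with the highest median was that of Wnt, BMP and Notch signalling, at 0.49, with 11 of 32 members higher and 1 lower, against 4.26% and 3.32% of all genes. Without clone T replicate 1 the 11 became 6, and without clone H replicate 2, 3 or 4 they became 7. The mean log2 CPM of this list was 3.84 with clone T and 3.07 with clone H. It was 3.81 with clone E, 4.04 with clones K and M and 4.14 with clone N. KPC1 had 3.44, clone V 2.97 and mono-culture 2.33, so clone T lay within the range of the other co-cultures.

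**Figure D4:**
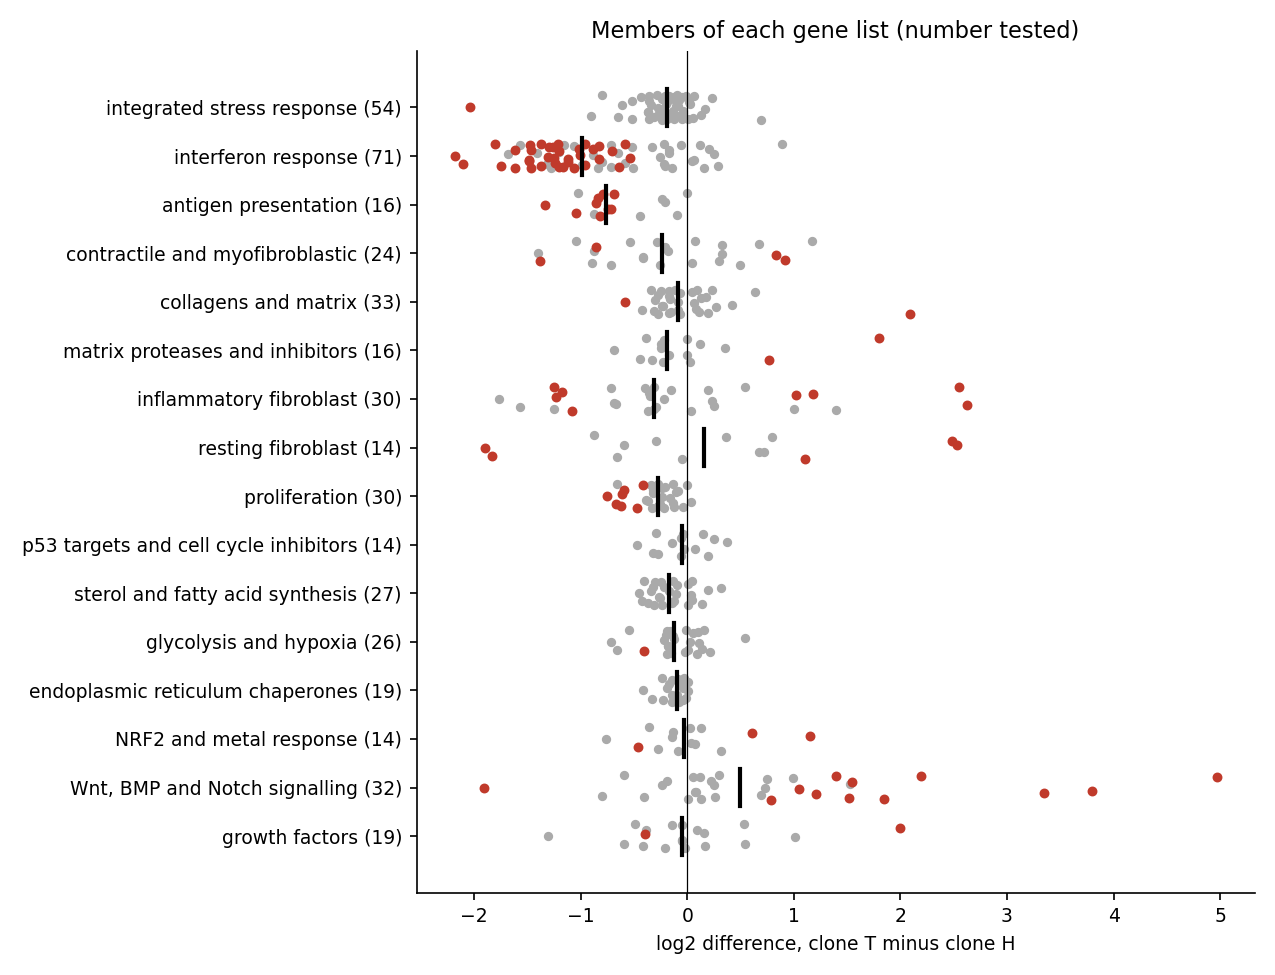
Log2 difference between clone T and clone H for every tested member of each list, with black bars at list medians and red points for members past the genome-wide threshold. The interferon and antigen presentation lists lie to the left, with medians of -0.99 and -0.77, and the Wnt, BMP and Notch list to the right, with a median of 0.49.

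Of 9 BMP signalling genes tested 5 rose with clone T, where 4.26% of all genes did, and 3 of the 9 were below 0. Bmp2, a secreted BMP ligand, read 18.3, 3.90, 7.37 and 19.5 CPM with clone T and 1.26, 0.253, 1.39 and 0.655 CPM with clone H, a log2 difference of 3.79 (SE 0.62, adjusted p = 0.00025). Bmp4, a related ligand, read 43.6, 29.1, 38.2 and 49.2 CPM against 19.3, 18.2, 19.6 and 20.2 CPM (1.05, SE 0.24, adjusted p = 0.0058). The direct BMP targets Id1, Id2 and Id3, which encode inhibitors of helix-loop-helix factors, rose by 1.20, 1.54 and 1.40. Clone T replicate 2 lay within or below the clone H range for all 3, as for Id3, which read 139, 32.1, 65.3 and 109 CPM against 36, 33.1, 28.6 and 33.3 CPM. Within clone T, Bmp2 and Id3 were highest in replicates 1 and 4 and lowest in replicate 2, as was the epithelial marker Krt19 at 131, 33.7, 54.0 and 96.6 CPM, and the part of that signal in these differences was not tested. Grem1, a secreted BMP antagonist, averaged near the same level in both and did not pass (log2 difference -0.19, SE 0.25).

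Notch and Wnt genes followed in part. Dll1, a Notch ligand, read 3.20, 3.02, 4.10 and 3.04 CPM with clone T and 0.12, 0.303, 0.258 and 0.567 CPM with clone H (3.35, SE 0.55, adjusted p = 0.00021). Jag1, another ligand, rose by 0.78, and the Notch targets Hey1 and Heyl rose by 1.52 and 2.20, with Hey1 at 8.14 to 10.5 CPM against 2.62 to 3.94 CPM. Hes1, a further target, did not pass, at 56.7 to 72.5 CPM against 32 to 62.1 CPM. Wnt4, a Wnt ligand, had the highest difference of the list, at 4.97 (SE 0.78, adjusted p = 0.00014), with 7.25, 0.879, 1.86 and 5.09 CPM against 0.0599, 0.152, 0.103 and 0.131 CPM. Notum, a secreted Wnt inhibitor, rose by 1.85, while Wnt10b fell by 1.90 with ranges that overlapped. The Wnt targets Axin2 and Lef1 stood at 0.13 (SE 0.39) and 0.05 (SE 0.20) and did not pass.

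The genes furthest above clone H were low in mono-culture. The 12 with the highest difference under the naming rule were Vsig1, Spint2, Il1rn, Selp, Pls1, Slc9a2, Rbp4, Hs3st1, Syt7, Onecut2, Hgfac and Akr1c13. Each averaged under 1 CPM in mono-culture, and 9 of the 12 were highest in clone T replicate 1. Il1rn (chr2:24336853-24351494, GRCm38), the interleukin-1 receptor antagonist, read 122, 24.1, 32 and 72.4 CPM with clone T and 1.68, 1.46, 0.723 and 0.611 CPM with clone H, a log2 difference of 5.83 (SE 0.51, adjusted p = 2.7e-08). Spint2 (chr7:29256323-29281912), an inhibitor of epithelial serine proteases, read 16.7, 10.2, 11.6 and 16.4 CPM against 0.0599, 0.152, 0.310 and 0.305 CPM. Vsig1 (chrX:140907608-140939472), a junctional protein of gastric epithelium, read 9.27, 1.81, 3.39 and 7.09 CPM against 0.0599, 0.0505, 0.103 and 0 CPM. Selp, P-selectin, averaged 9.94 ± 3.15 CPM and 0.207 ± 0.216 CPM and was at 0 in all mono-culture libraries. Syt7, a calcium sensor of exocytosis, averaged 16 ± 4.54 CPM and 0.959 ± 0.473 CPM. Onecut2, an endodermal transcription factor, averaged 19.5 ± 5.15 CPM and 1.25 ± 0.933 CPM. Rbp4, a retinol carrier, averaged 25.8 ± 15.4 CPM and 1.06 ± 0.503 CPM. The other members differed by 3.94 to 4.73 on the log2 scale. Several of these genes were also present in other co-cultures: Il1rn averaged 26.3 CPM with clone E and 25.4 CPM with clone N, Spint2 averaged 8.68 CPM with clone N and 6.64 CPM with KPC1, and Rbp4 averaged 35 CPM with clone N, above its clone T mean.

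Epithelial markers were higher with clone T in the same libraries. Krt18, a keratin of simple epithelia, read 429, 185, 237 and 273 CPM with clone T, 81.5, 39.4, 147 and 106 CPM with clone H and 0.161 CPM on average in mono-culture. Krt8, its partner, read 227, 64.3, 97.6 and 132 CPM against 39.2, 15.1, 55.4 and 44.3 CPM, and Krt19 read 131, 33.7, 54.0 and 96.6 CPM against 19.1, 5.51, 27.6 and 25.3 CPM. None of the 3 keratins passed the threshold, at log2 differences of 1.76, 1.59 and 2.02 for Krt8, Krt18 and Krt19 (adjusted p = 0.099, 0.14 and 0.07). Cldn3, a tight-junction protein, was the 1 of the 9 epithelial markers tested that rose, with 4.04, 1.26, 0.929 and 1.88 CPM and 0 in every clone H library, while Cdh1, E-cadherin, was at 3.08 to 9.38 CPM against 2.58 to 9.08 CPM. Of the 615 genes that rose with clone T, 172 (28%) averaged under 1 CPM in mono-culture, against 34 (7.10%) of the 479 that fell and 13.9% of all genes tested, a limit chosen after the values were seen. Clone T replicate 1 was the highest clone T library for 400 of the 615, against 4065 of all 14439 genes. The part of RNA from tumour cells left after the sort in these differences was not tested.

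**Figure D5:**
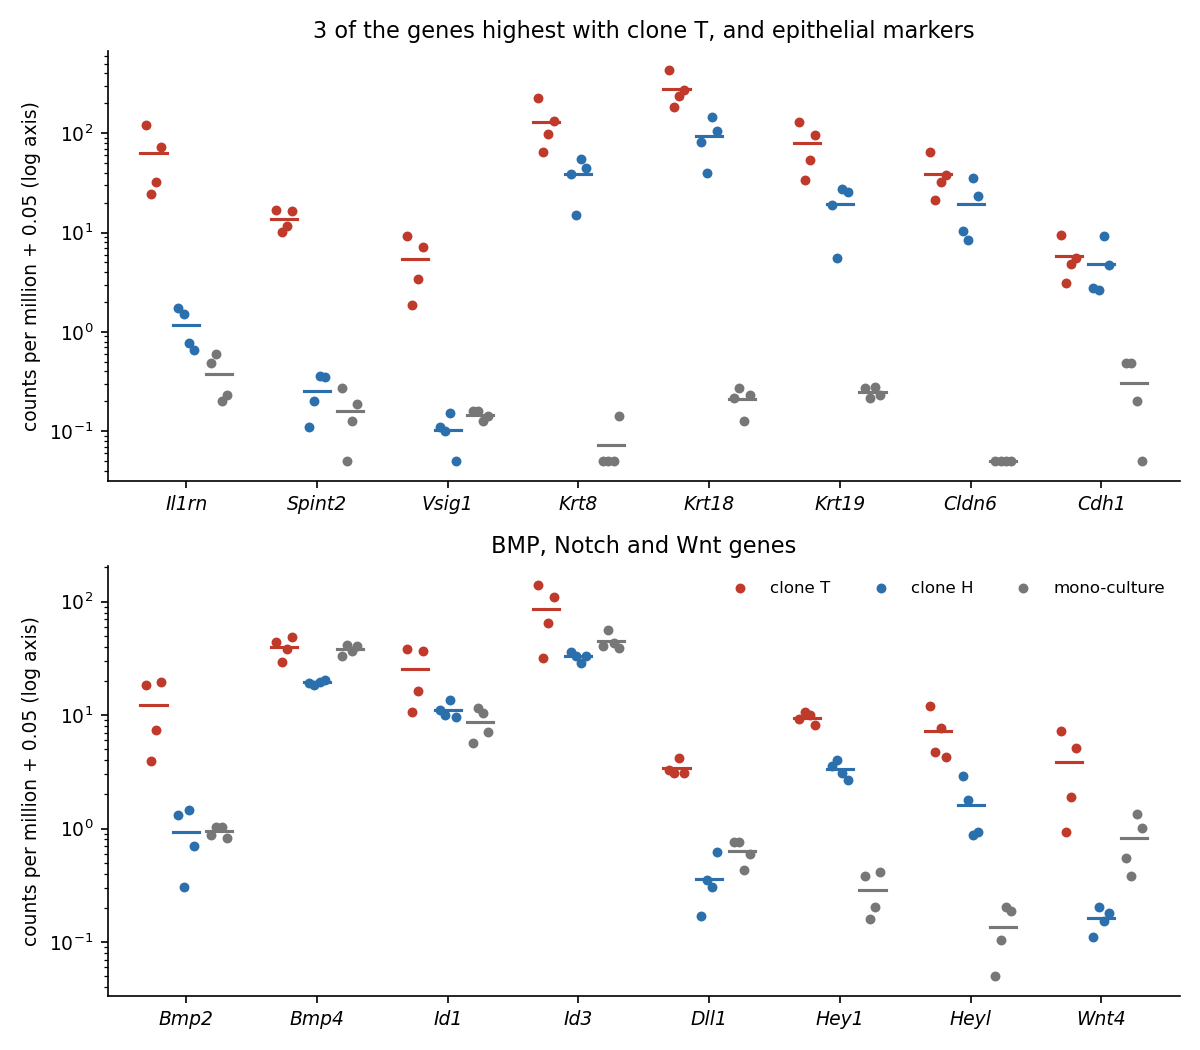
CPM plus 0.05, on log axes, of Il1rn, Spint2, Vsig1 and 5 epithelial markers (top) and of 8 BMP, Notch and Wnt genes (bottom), in the 4 libraries of clone T (red), clone H (blue) and mono-culture (grey), with bars at the means. Il1rn, Spint2 and Vsig1 are higher in all 4 clone T libraries than in the clone H and mono-culture libraries, whereas the keratins and Cldn6 are high in both co-cultures and near or at 0 in mono-culture.

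The 12 genes furthest below clone H were Edn1, H19, Ces1a, Dpt, Ptprb, Il1rl1, Ces1g, Lrp11, Apol9b, Apol9a, Cd38 and Nrep, and 8 of them were lowest in clone T replicate 1. Of the 9 with a promoter at hand, 3 (33.3%) held the core of the interferon-stimulated response element, against 8.18% of all genes. Among the 12 furthest above clone H it was 0 of 9. Nothing is read from these shares, since the pair was chosen by its interferon genes and the 12 lowest include close paralogs. Whether these genes belong to the interferon difference was not tested. Edn1 (chr13:42301476-42307990), the vasoconstrictor endothelin-1, read 1.29, 2.09, 0.819 and 1.05 CPM with clone T and 3.29, 9.80, 14.0 and 7.86 CPM with clone H, a log2 difference of -2.73 (SE 0.46, adjusted p = 0.00037). Dpt (chr1:164796644-164824266), the matrix protein dermatopontin of resting fibroblasts, read 3.82, 4.12, 4.21 and 5.54 CPM against 10.7, 19.1, 7.38 and 25.6 CPM, and both were far under the mono-culture mean of 166 ± 45.8 CPM. Il1rl1, the interleukin-33 receptor, read 5.67, 12.4, 6.56 and 7.97 CPM against 22, 39.2, 24.5 and 25.6 CPM (-1.77, SE 0.31, adjusted p = 0.00061). Nrep, a small protein of wound fibroblasts, read 116, 101, 130 and 121 CPM against 299, 352, 247 and 303 CPM, with 65.8 ± 9.95 CPM in mono-culture. H19, an imprinted noncoding RNA, averaged 3.42 ± 2.70 CPM and 19 ± 10.1 CPM. Lrp11, a lipoprotein receptor relative, averaged 2.94 ± 0.149 CPM and 8.56 ± 1.12 CPM. Apol9a and Apol9b, and Ces1a and Ces1g, are close paralogs whose reads may be shared, so the split within each pair is uncertain. H19 and Ces1a lost their call without clone T replicate 1 or clone T replicate 3, Ptprb without clone H replicate 3, clone T replicate 1 or clone T replicate 4, and Cd38 without clone H replicates 1 or 3 or clone T replicates 1, 3 or 4.

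Cytokine and chemokine genes went in both directions, with 4 of 30 inflammatory genes higher and 4 lower, against 4.26% and 3.32% of all genes. Il33, an alarmin, read 10.3, 18.8, 10 and 13.8 CPM with clone T and 25.5, 42.0, 24.7 and 26.9 CPM with clone H (-1.17, SE 0.29, adjusted p = 0.011), so that this ligand and its receptor Il1rl1 were both lower. Il6 fell by 1.08, from 5.19 to 9.90 CPM with clone H to 2.10 to 4.73 CPM with clone T, and Ccl7, a monocyte chemokine, fell by 1.25. Ptgs2, the inducible prostaglandin synthase, fell by 1.23, with ranges that overlapped, while Ptges, which acts after it, rose by 1.02. Ccl11, the eosinophil chemokine eotaxin, rose by 2.55, from 0.505 to 0.916 CPM to 1.85 to 6.17 CPM, and Cxcl16 rose by 1.18. Icam1, an adhesion molecule, rose by 2.62 between levels of 0.0505 to 0.262 CPM and 0.275 to 1.80 CPM. Lcn2, the member with the lowest difference, did not pass (-1.77, SE 1.46, adjusted p = 0.49). Without clone H replicate 2 the 4 lower became 0 and the 4 higher became 1, and without clone T replicate 1 they became 0 and 2. The 4 lower became 2 without clone T replicate 3, and 1 without clone H replicate 3 or clone T replicate 4.

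Differences in proliferation genes were small. Of 30 members 29 were below 0, with a median of -0.27, and 7 passed the threshold, all lower, where 3.32% of all genes were called lower. Rrm2, which makes deoxynucleotides, read 70.1, 80.5, 74.7 and 82.8 CPM with clone T and 116, 172, 128 and 102 CPM with clone H (-0.75, SE 0.17, adjusted p = 0.0057). Mki67, the antigen of cycling cells, read 352, 454, 481 and 385 CPM against 656, 714, 716 and 489 CPM (-0.62, SE 0.17, adjusted p = 0.018). Ccne1, Cdc6, Rrm1, Pcna and Bub1 were the other 5. Cenpf, a mitotic kinetochore gene with the highest difference of the list, did not pass (0.03, SE 0.17). The 7 became 1 without clone H replicate 2, 2 without clone T replicate 1 and 3 without clone T replicate 3. Both clones were above mono-culture for Rrm2 and Mki67, at mono-culture means of 54.2 CPM and 324 CPM. Over the 30 members, however, clone T was below mono-culture for 20 and clone H for 9, with median log2 differences of -0.15 and 0.18.

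Contractile and matrix genes held differences in both directions. All clone T libraries stood above all clone H libraries for 4 of 24 contractile and TGF-beta target genes and below them for 4. For 33 collagen and matrix genes these counts were 2 and 2, against 6.17% and 5.32% of all genes. Of 24 contractile and TGF-beta target genes, 2 rose and 2 fell, against 4.26% and 3.32% of all genes: Des, the intermediate filament desmin, at 3.52 to 3.93 CPM against 1.91 to 2.05 CPM, and Ltbp2, which binds latent TGF-beta, rose by 0.92 and 0.83, while Thbs1, a matrix glycoprotein, fell by 0.86. Without clone H replicate 2 or clone T replicate 1 neither fall remained, without clone T replicate 1 one rise remained, and without clone H replicate 3, clone T replicate 3 or clone T replicate 4 one fall remained. Myh11 and Lrrc15, the extremes of this list, did not pass. None of the 7 fibrillar collagens passed, with differences of -0.34 to -0.06. In the collagen and matrix list only Eln, elastin, rose (2.09, SE 0.50, adjusted p = 0.0083). Eln averaged 4.08 CPM with clone T and 0.949 CPM with clone H, both under its mono-culture mean of 6.99 CPM. Only Plod2, a collagen lysyl hydroxylase, fell (-0.59, SE 0.11, adjusted p = 0.0013). Plod2 averaged 106 CPM with clone T and 159 CPM with clone H, beside 134 CPM in mono-culture. Mmp3, a matrix protease, and Timp2, a protease inhibitor, rose by 1.80 and 0.77, and the call of Mmp3 was lost without clone H replicate 1, 2 or 3 or clone T replicate 3 or 4. Adamts1 had the lowest difference of the protease list and did not pass (-0.69, SE 0.30).

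Genes of the resting fibroblast list also divided, with 3 of 14 higher and 2 lower, against 4.26% and 3.32% of all genes. Not every gene of this list is an established marker of that state, Sprr1a among them. Ly6c1 and Ly6a, related surface proteins, rose by 2.54 and 2.49: Ly6c1 read 35.4, 8.46, 14.0 and 20.2 CPM with clone T and 2.04, 2.93, 3.82 and 4.54 CPM with clone H. Sfrp1, a Wnt inhibitor, rose by 1.11. Sprr1a, at 240 CPM in mono-culture, fell by 1.90 (SE 0.57, adjusted p = 0.037) from 3.61 to 19.7 CPM to 1.91 to 5.73 CPM, and Dpt is given above. Sprr1a lost its call without clone H replicate 1, 2 or 4 and without each of the 4 clone T libraries in turn. Fap, a fibroblast activation marker, rose by 1.03, at 43.9 to 49.9 CPM against 17.4 to 27.3 CPM.

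The remaining lists held 0 to 3 calls each. The share called was 3.85% for glycolysis and hypoxia, 21.4% for NRF2 and metal genes and 10.5% for growth factors, against 7.58% of all genes. None of the 14 p53 targets and cell cycle inhibitors, of the 27 sterol and fatty acid genes or of the 19 endoplasmic reticulum chaperones passed, with medians of -0.05, -0.17 and -0.09. Sesn1 and Btg2, Elovl6 and Lss, and Manf and Herpud1 were the extremes of those lists, between -0.47 and 0.37. Of 26 glycolysis and hypoxia genes only Pgam1 fell, by 0.41, and Ankrd37 and Adm, the extremes, did not pass. Among 14 NRF2 and metal genes Gsta4 and Osgin1 rose, by 1.15 and 0.61, and Hmox1 fell by 0.46, while Mt2 did not pass. Among 19 growth factors Tgfa, a ligand of the EGF receptor, rose by 1.99, at 9.19 to 19.9 CPM against 2.34 to 6.86 CPM, and Pdgfc fell by 0.39, while Igf2 did not pass (-1.30, SE 0.48, adjusted p = 0.089). The fall in the glycolysis list was lost without clone H replicate 2 or 3 or clone T replicate 1, 3 or 4, and that in the growth factor list without clone H replicate 1, 2 or 3 or clone T replicate 1, 3 or 4. The 2 rises of the NRF2 list became 0 without clone H replicate 1 or 2 or clone T replicate 1, and 1 without clone H replicate 4 or clone T replicate 2 or 3. Its fall was lost without clone H replicate 2 or 3 or clone T replicate 1, 3 or 4.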

How the data were processed

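Poly(A) RNA of sorted fibroblasts was sequenced from 36 samples in 9 groups of 4. The authors deposited raw read counts for 39017 genes and RPKM values for 37746 genes. The submitters' processing notes name STAR, featureCounts, edgeR and the mm10 build, and versions are not given in the sources used here. Library totals ran from 12532122 to 21985538 counts. Groups were taken from the sample labels.

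Counts were fitted with edgeR 4.0.16 (R 4.3.3): TMM scaling, filterByExpr over the 9 groups (14439 genes kept), a robust quasi-likelihood fit of all 36 libraries, the contrast clone T minus clone H, and Benjamini-Hochberg adjustment with a threshold of 0.05. The fits were checked on simulated data. CPM are TMM-scaled. Gene positions came from GENCODE M21 and promoters from RefSeq GRCm38.p6. No libraries of clone T or of clone H were alike within counting noise (lowest chi-square per degree of freedom 14.8). Alternatives used DESeq2 1.42.0, limma 3.58.1 on log2(RPKM + 1) and log2(RPKM + 0.1), other scalings, filters and libraries, a replicate block, and each of the 8 libraries left out in turn.

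The pair and the gene lists were chosen with earlier results of these data known. Genes were named by rule: the 12 highest and 12 lowest log2 differences among called genes outside the stress, interferon and antigen presentation lists with a mean of at least 2 CPM and clones that did not overlap. The highest and lowest member of each other list was added. In each role of those 3 lists the rule took the 2 members of highest level and the 1 of largest difference with a mean of at least 2 CPM, with Asns, Atf4, Ddit3, Trib3, Rsad2, Ifit1, Isg15, Irf7 and Cmpk2 by name. A few genes that the lists or the rule hold are not reported here.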

Additional observations from a re-analysis of the deposited data

Results flagged for a closer look

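Dixon's test was applied to the 4 libraries of a clone in 226 cases, for genes and list scores. In 17 cases the gap between the highest or lowest library and its neighbour, as a share of the whole range, passed the 95% critical value. Chance passes about 1 case in 20, or 11.3 of the 226. No cause was tested for any of them.

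Clone H replicate 4 was the library apart in 7 of these sets, all as the low library except for Psme1. The stress-response score stood apart there (ratio 0.927, at 7.02 against 7.57 to 7.61), as did Nars (0.954, at 505 CPM against 801 to 816 CPM), Aars (0.879), Slc38a2 (0.836), Slc6a9 (0.854) and Herpud1 (0.905), while Psme1 was high (0.926, at 63.1 CPM against 42.2 to 43.8 CPM).

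In the other clone H sets, replicate 2 was high for Lrrc15 (0.883) and Adamts1 (0.853), replicate 3 was high for Slc9a2 (0.863) and Lcn2 (0.944), and replicate 1 was low for Manf (0.935).

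With clone T, replicate 4 was high for Eln (0.928, at 5.65 CPM against 3.50 to 3.65 CPM) and low for Slc9a2 (0.83) and Vegfa (0.843). Replicate 2 was high for Zbp1 (0.859), and replicate 1 was low in the score of the matrix proteases and inhibitors (0.917, at 5.30 against 5.56 to 5.58).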

How the results depend on the processing

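Under the alternatives run, no value that was called changed sign. Over 50 single genes, the 24 highest and lowest and the highest and lowest member of each other list, 9 values fell below the threshold and 6 rose past it, against 451 that kept their side, and with 1 library left out these were 31, 3 and 366. With only the 8 libraries compared, 551 genes were called in place of 1094 (366 higher and 185 lower, 500 of them shared with the 1094), with 8 interferon members in place of 36 and 3 antigen presentation members in place of 9. Without a filter on low counts 318 genes were lower, 22 interferon members were called, and 7 Wnt, BMP and Notch members were higher in place of 11. With at least 10 counts in every library that last count was 6, and 6 of the 24 highest and lowest genes were called, since the others were not tested there. On log2(RPKM + 1) and on log2(RPKM + 0.1), 22 interferon members were called.

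Leaving out 1 library at a time gave 394 to 1369 genes called, 269 to 738 higher and 125 to 631 lower. The members called ran from 8 to 47 for interferon, 2 to 9 for antigen presentation, 1 to 7 for proliferation, 6 to 11 for Wnt, BMP and Notch and 19 to 49 for the other lists together, and 20 to 24 of the 24 highest and lowest genes were called. The median log2 difference ran from -0.29 to -0.08 for the stress-response list, -1.19 to -0.71 for the interferon list and -0.88 to -0.62 for the antigen presentation list. The causes were not tested.

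The labels do not say that a replicate number marks a shared culture or day, and the numbers were not used as pairs, since over all genes the deviations of same-numbered clone T and clone H libraries correlated at 0.291, -0.18, 0.078 and 0.099, and not every library correlated best with its own number. A shared effect of the number was nevertheless visible in the list scores given above, and its cause was not tested. In the order of the sample titles the co-culture libraries came replicate by replicate and the mono-culture libraries last. What this order marks is not stated, and its part in the comparisons with mono-culture was not tested. Between libraries numbered 1 to 4, the interferon score differed by -0.64, -0.25, -1.29 and -1.13 (clone T minus clone H), and the stress-response score by -0.33, -0.14, -0.33 and -0.06, so that both were lower with clone T under each number. With the replicate block 1723 genes were called, 828 of them lower, and all 1094 were among them. With the replicate block in the 8 libraries alone, 2051 were called (1020 higher and 1031 lower), with 83 members of the other lists in place of 46 and 14 proliferation members in place of 7, and 12 stress-response members were past the threshold and lower in place of 1. Nothing is read from the stress-response count, since the pair was chosen by those genes. The share of calls that were higher was 56.2%, against 66.4% in the 8 libraries, 59.5% with RLE scaling and 62.1% with library size alone.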
